A study of Mus musculus with 6 samples.

Results

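Aggrecan, versican, the link protein that fastens them to hyaluronan, the hyaluronan synthase HAS2 and the 4 matrilins were followed through digits-in-a-dish (DID) cultures, in which dissociated limb bud cells rebuild digit-like cartilage on a culture dish. The 8 genes, *Acan*, *Hapln1*, *Vcan*, *Has2*, *Matn1*, *Matn2*, *Matn3* and *Matn4*, were taken by symbol from the 32286 genes of the deposited tables, and all 8 passed the filter on low counts. The cultures were made from distal forelimb mesenchyme of wild-type CD-1 mouse embryos at stage E11.5, pooled over embryos, and were sampled by 3′ single cell RNA sequencing at Day 2, Day 7 and Day 10, with 2 independently processed cultures (A and B) at each day and no treatment that differed between the groups. Day of culture is therefore the only contrast, and embryonic limb cartilage itself was not among the samples.

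Aggrecan is the large proteoglycan that holds water in cartilage. Many aggrecan molecules bind along one hyaluronan chain, and each bond is locked by link protein. Versican, a relative of aggrecan that binds hyaluronan in the same way, is the lectican of limb mesenchyme and of early condensations. Matrilins are oligomeric adaptors that tie collagen fibrils to proteoglycans, with matrilin 1 and matrilin 3 typical of cartilage, whereas matrilin 2 is found in many connective tissues and matrilin 4 is widespread.

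The 6 libraries held 9448 to 16486 cells and 178022112 to 260245417 unique molecular identifiers (UMIs, each standing for 1 captured transcript) after the study's cell filter. Day 2 replicate B stood apart in depth, with a median of 3871 UMIs per cell and 41.4% of cells under 3000 UMIs, against medians of 8062 to 24197 and 6.84% to 30.8% in the other libraries. Cells were therefore ordered, and levels within a library read, after thinning each cell to 3000 UMIs, which left 8802 to 9653 cells per library. The tests between days on groups of these cells instead summed all their UMIs, so that deeper cells weigh more there. Any pair of libraries had 24 to 67 cell barcodes in common, at most 0.543% of the smaller library. The limb mesenchyme markers (*Prrx1*, *Twist1*, *Msx1*, *Hoxa13* and *Hoxd13*, 5 of 5 above 0 in every library) summed to 689 to 690 CPM (UMIs per 1000000 UMIs of the library) at Day 2, 307 to 327 at Day 7 and 439 to 456 at Day 10. The cartilage markers summed to 2061 to 2298, 16624 to 18139 and 9844 to 10705 CPM. The 9 muscle markers summed to 343 to 424 CPM at Day 2 and 19.0 to 25.8 at Day 10, and the 6 macrophage markers to 11.4 to 23.1 and 96.9 to 122 CPM. The part of these cell types in the changes below was not tested.

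The members lie on 6 mouse chromosomes (GENCODE M21 annotation, GRCm38). *Hapln1* (chromosome 13, 89539796 to 89611652) and *Vcan* (chromosome 13, 89655312 to 89742509) are neighbours that point towards each other across 43659 bases. *Has2* (chromosome 15, 56665627 to 56694539) and *Matn2* (chromosome 15, 34306677 to 34436273) share a chromosome, and *Acan* (chromosome 7, 79053483 to 79115099), *Matn1* (chromosome 4, 130944385 to 130955475), *Matn3* (chromosome 12, 8947929 to 8972028) and *Matn4* (chromosome 2, 164389393 to 164405160) lie apart. The antisense gene *Has2os* overlaps *Has2* over 4596 bases on the opposite strand. The overlap lies at the 5′ ends of both genes, whereas the libraries read 3′ ends. The sources used here do not give the strand setting of the counting, and sharing of reads was not tested. *Has2os* stood at 1.14 and 1.26, 6.86 and 7.03, and 3.35 and 3.36 CPM at the 3 days. RefSeq promoters (GRCm38.p6) were found for 6 of the 8 members. Those of *Acan*, *Matn1* and *Matn3*, which changed together below, and of *Vcan*, which changed the other way, are printed as the 250 bases before the start of transcription, 5′ to 3′ in the direction of the gene:
Acan (chr7:79052976-79053225, strand +): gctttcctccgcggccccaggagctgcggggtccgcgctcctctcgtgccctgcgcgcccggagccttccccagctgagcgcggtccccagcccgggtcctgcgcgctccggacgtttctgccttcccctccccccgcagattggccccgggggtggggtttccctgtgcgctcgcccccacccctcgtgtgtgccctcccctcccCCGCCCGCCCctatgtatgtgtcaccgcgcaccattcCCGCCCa
Matn1 (chr4:130944135-130944384, strand +): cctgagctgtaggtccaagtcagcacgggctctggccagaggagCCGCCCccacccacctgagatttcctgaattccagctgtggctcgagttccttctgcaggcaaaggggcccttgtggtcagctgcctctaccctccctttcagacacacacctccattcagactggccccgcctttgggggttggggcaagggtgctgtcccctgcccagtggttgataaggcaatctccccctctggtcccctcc
Matn3 (chr12:8947679-8947928, strand +): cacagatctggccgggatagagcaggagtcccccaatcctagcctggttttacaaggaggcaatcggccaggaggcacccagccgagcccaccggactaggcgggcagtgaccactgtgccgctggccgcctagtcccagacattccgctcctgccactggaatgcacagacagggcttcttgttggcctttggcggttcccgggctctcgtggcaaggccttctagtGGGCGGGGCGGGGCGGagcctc
Vcan (chr13:89742513-89742762, strand −): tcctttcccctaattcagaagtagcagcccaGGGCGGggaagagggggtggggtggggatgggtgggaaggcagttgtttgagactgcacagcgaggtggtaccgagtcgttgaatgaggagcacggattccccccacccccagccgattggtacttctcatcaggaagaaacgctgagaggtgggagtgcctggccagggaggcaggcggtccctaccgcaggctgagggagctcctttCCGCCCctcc
Capitals mark the letters GGGCGG on either strand (the GC box, CCGCCC where it lies on the other strand), the only one of 4 searched motifs found in these windows. Neighbouring copies that overlap run together. The RefSeq window of *Acan* ends at 79053225 and so does not border the GENCODE start of the gene at 79053483. *Acan* and *Matn3* each held 3 copies, *Vcan* held 2 and *Matn1* held 1, and 32.7% of all 32851 RefSeq promoter windows of that length held at least 1. None of the 4 windows held TATAAA (in 12.4% of all windows), or the SOX-type cores ACAAT (27.7%) and ACAAAG (16.5%), on either strand. *Hapln1*, which rose with *Acan*, has a window that lies in the 5′ UTR of an annotated transcript and is not printed; it held 1 ACAAT and no GC box. The windows of *Matn4* overlap an annotated exon and are not printed either. *Acan* stood apart in base composition, with 74.4% G and C against 62.0%, 65.2% and 62.4% in *Matn1*, *Matn3* and *Vcan* and a median of 52.4% over all windows.

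Between Day 2 and Day 7 one lectican rose and the other fell. *Acan* went from a low level to about 1000 CPM, *Hapln1* and the cartilage matrilins *Matn1* and *Matn3* rose with it, and *Vcan* fell. *Matn4*, already well expressed at Day 2, rose 2.38-fold and *Has2* 1.61-fold, so that all 8 members changed (edgeR's quasi-likelihood test with Benjamini-Hochberg adjustment over 18987 genes, n = 2 libraries a day): 7 were higher and 1 lower. Of all genes tested, 35.7% were higher and 34.6% lower at Day 7, and the members' median log2 fold change was 4.002 against 0.01 over all genes. Levels here are UMIs summed over whole libraries, in which fewer cells of a type and less RNA per cell cannot be told apart.

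*Acan* stood at 24.6 and 32.9 CPM in Day 2 replicates A and B, at 1112 and 1021 at Day 7 and at 785 and 677 at Day 10. The days did not overlap, and the log2 fold change from Day 2 to Day 7 was 5.22 ± 0.15 (standard error, SE; adjusted p = 1.9e-08), a 37.2-fold rise. *Hapln1*, which encodes link protein, followed with 19.7 and 26.1 CPM, then 892 and 849 at Day 7, then 710 and 602. Its rise of 5.25 ± 0.15 (SE, log2; adjusted p = 1.7e-08) was within 1 SE of that of *Acan*. *Vcan* went the other way, from 287 and 254 CPM at Day 2 to 95.7 and 98.5 at Day 7 and 108 and 89.6 at Day 10, and fell by 1.48 on the log2 scale from Day 2 to Day 7 (SE 0.09, adjusted p = 1.4e-06), 2.79-fold. The hyaluronan synthase *Has2* was low throughout, with 8.31 and 9.56, 14.1 and 14.6, and 11.6 and 9.64 CPM at the 3 days, and rose by 0.68 ± 0.10 (SE, log2; adjusted p = 0.00022) to Day 7.

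Among the matrilins, *Matn1* had the widest range, from 6.75 and 8.91 CPM at Day 2 to 1725 and 1621 at Day 7 and 898 and 833 at Day 10. Its log2 fold change to Day 7 was 7.74 ± 0.15 (SE, adjusted p = 3.5e-09), or 214-fold. *Matn3* also peaked at Day 7, with 4.95 and 5.73, 119 and 114, and 83.0 and 69.9 CPM, a log2 rise of 4.45 ± 0.11 (SE, adjusted p = 7.0e-09). *Matn4* was the one matrilin above 100 CPM at Day 2, with 158 and 155 CPM there, 379 and 366 at Day 7 and 291 and 269 at Day 10, and its rise of 1.25 ± 0.06 (SE, log2; adjusted p = 2.6e-07) was the smallest of the 4. *Matn2*, the matrilin of general connective tissue, went from 0.909 and 0.978 CPM to 9.99 and 12.2 at Day 7 and 10.4 and 9.89 at Day 10, a rise of 3.56 ± 0.11 (SE, log2; adjusted p = 2.8e-08). In the plot of levels by day, 6 members peak at Day 7 without overlap between that day and the others.

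**Figure D1:**
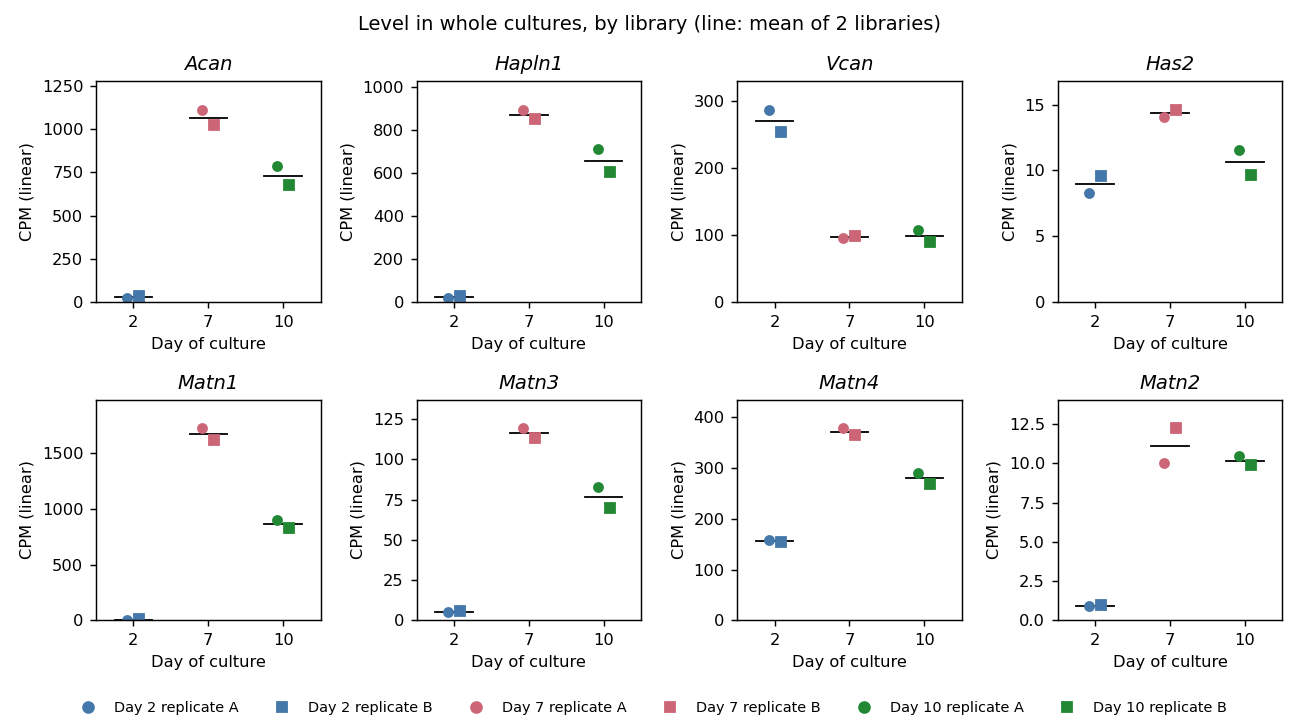
Level of each member in whole cultures (CPM on a linear axis that starts at 0) at Days 2, 7 and 10; circles are replicate A, squares replicate B and lines the mean of 2 libraries. *Acan*, *Hapln1*, *Matn1*, *Matn3*, *Matn4* and *Has2* are highest in both Day 7 libraries, and *Vcan* is highest in both Day 2 libraries.

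From Day 7 to Day 10 the cartilage members fell by less than they had risen, in a comparison that shares the Day 7 libraries with the one above. In whole cultures 6 members were lower and 0 higher by the same test (25.9% of all genes were lower and 26.3% higher), the members' median log2 fold change being -0.42 against -0.02 over all genes. The count higher was also 0 at an unadjusted p under 0.05 and by DESeq2. *Matn1* dropped by 0.95 on the log2 scale (SE 0.11, adjusted p = 0.00026), from a mean of 1673 ± 73.7 CPM (SD, n = 2) to 866 ± 45.9. *Matn3* dropped by 0.61 (SE 0.09, adjusted p = 0.00076), *Acan* by 0.55 (SE 0.13, adjusted p = 0.0078), *Has2* by 0.43 (SE 0.10, adjusted p = 0.0054), and *Matn4* and *Hapln1* by 0.41 each (SE 0.06 and 0.13, adjusted p = 0.00065 and 0.024). Some of these calls depended on the processing. *Hapln1* lost its call under DESeq2 (adjusted p = 0.073) and without either Day 7 library or Day 10 replicate B, and *Acan* without Day 10 replicate B (adjusted p = 0.062). With cells thinned to 3000 UMIs *Matn4* lost its call (-0.25, adjusted p = 0.05001) and *Matn2* gained one (-0.64, adjusted p = 0.0019), so that the count stayed at 6. Without Day 7 replicate A the count also stayed at 6, *Hapln1* losing its call (adjusted p = 0.102) and *Matn2* gaining one (-0.27, adjusted p = 0.0498). The replicates overlapped between the days for *Matn2* (log2 difference -0.13 ± 0.09 SE, adjusted p = 0.28) and *Vcan* (0.02 ± 0.09 SE, adjusted p = 0.84). At the same time the share of cells with at least 50 cartilage collagen UMIs per 3000 went from 46.1% and 38.5% at Day 7 to 25.3% and 23.0% at Day 10; its part in the fall was not tested.

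To compare days among the cells richest in cartilage collagen, cells were ordered by a score, the UMIs of *Col2a1*, *Col9a1*, *Col9a2*, *Col9a3*, *Col11a1* and *Col11a2* among 3000, and the top 20% of each library were taken (1760 to 1930 cells), the highest of 5 equal bins. None of the score genes is a member. Thinning set the order only, and the tests between days summed all UMIs of the cells taken. The bin is a rank, not one cell state, since it began at a score of 11 and 9 in the Day 2 libraries, 102 and 89 in those of Day 7, and 72 and 61 in those of Day 10. *Vcan* had 496 and 429 CPM at Day 2, then 29.96 and 19.97, then 23.3 and 20.2 CPM, and fell by 4.22 on the log2 scale to Day 7 (SE 0.15, adjusted p = 1.3e-13), an 18.6-fold fall against 2.79-fold in the whole culture. After thinning to 3000 UMIs and without TMM scaling, the top 20% of cells at Day 10 held 50.03 and 29.9 CPM of *Vcan*, near or under the 48.0 and 61.5 CPM that macrophage-marked cells, described below, held on that scale. At Day 7 such cells (26 and 33) were too few for a level. The size of the fall would depend on any background there, and whether macrophage-marked cells make *Vcan* was not tested. The rise of *Matn4* was not seen here, its replicates overlapping between Days 2 and 7, with 505 and 423, 530 and 449, and 633 and 572 CPM and a log2 difference from Day 2 to Day 7 of 0.08 ± 0.11 (SE, adjusted p = 0.55). Without TMM scaling that difference was -0.39 (adjusted p = 0.0039), on a scale on which the median of all genes moved to -0.48.

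The other cartilage members rose in the top 20% of cells as in the culture. *Matn1* went from 30.1 and 32.7 CPM to 4811 and 4585 at Day 7 (log2 fold change 7.22 ± 0.16 SE), *Acan* from 109 and 123 to 3004 and 2676 (4.62 ± 0.14 SE), *Hapln1* from 87.0 and 90.1 to 2163 and 2126 (4.60 ± 0.13 SE), and *Matn3* from 18.4 and 16.3 to 336 and 322 (4.25 ± 0.11 SE). *Has2* rose from 12.2 and 13.0 to 23.8 and 22.1 CPM (0.86 ± 0.09 SE) and *Matn2* from 0.765 and 0.803 to 4.89 and 4.31 (2.54 ± 0.18 SE). After thinning, the top 20% held 8 and 5 UMIs of *Matn2* at Day 2 and 27 and 25 at Day 7. The bottom 20% at Day 7 held more, at 21.6 and 26.4 CPM against 4.83 and 4.42. Whether the *Matn2* level in the top 20% is background was not tested. In all, 6 members were higher and 1 lower at Day 7 by edgeR's quasi-likelihood test (adjusted p between 3.6e-16 and 2.5e-07), where 34.4% of the 15568 genes tested were higher and 35.9% lower.

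From Day 7 to Day 10, 3 members rose and 0 fell in the top 20% of cells by edgeR's quasi-likelihood test (20.0% of all genes were higher and 19.2% lower). The count lower was also 0 at an unadjusted p under 0.05 and by DESeq2. *Hapln1* rose to 3213 and 2792 CPM (log2 fold change 0.49 ± 0.11 SE, adjusted p = 0.0028), *Matn2* to 8.31 and 8.38 CPM (0.86 ± 0.12 SE, adjusted p = 4.1e-05) and *Matn4* to 633 and 572 CPM (0.30 ± 0.11 SE, adjusted p = 0.044). On the scale of thinned cells *Matn2* had 8.19 and 6.58 CPM in the top 20% at Day 10, under the 12.01 and 9.46 CPM of macrophage-marked cells. Those rest on 4 UMIs in each library, so this level cannot be told apart from background. *Acan* stood at 3403 and 2928 CPM against 3004 and 2676 at Day 7 (0.16 ± 0.12 SE, adjusted p = 0.33), and *Matn1* at 4286 and 4071 against 4811 and 4585 (-0.17 ± 0.12 SE, adjusted p = 0.27). Without Day 10 replicate A, *Hapln1* (adjusted p = 0.087) and *Matn4* (adjusted p = 0.29) lost their calls, so that 1 member was left; *Matn4* lost its call also with RLE factors, without Day 7 replicate B or Day 10 replicate B, and in the top 10% of cells. Without Day 7 replicate B *Vcan* was lower at Day 10 (log2 difference -0.46, adjusted p = 0.0050).

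**Figure D2:**
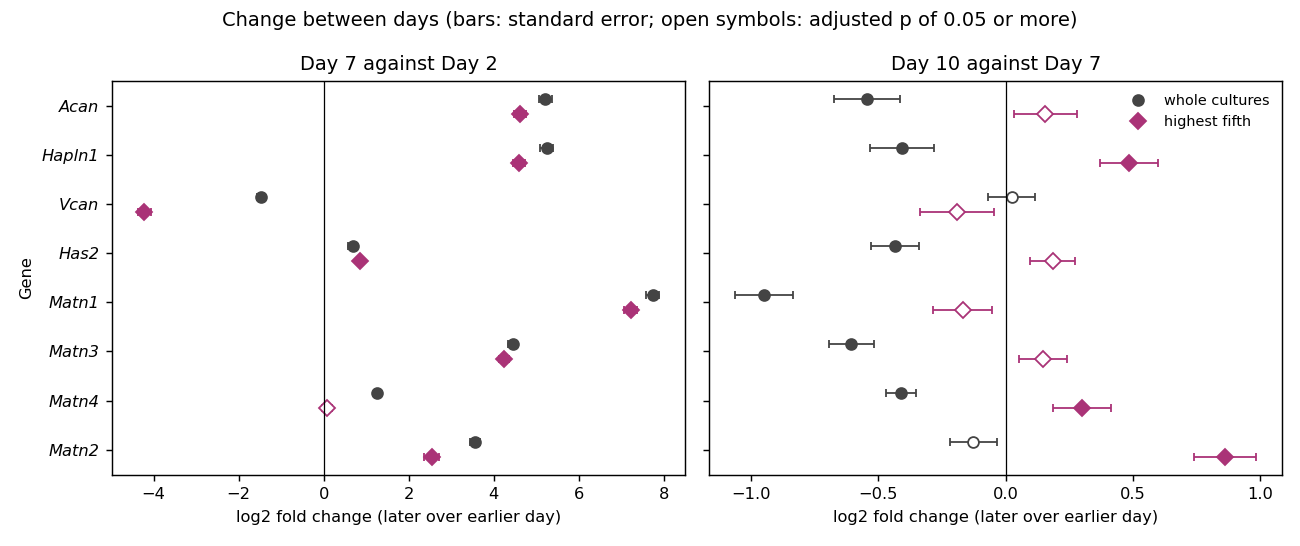
Log2 fold change of each member between days with its SE, in whole cultures (circles) and in the top 20% of cells by cartilage collagen score (diamonds); filled symbols have an adjusted p under 0.05. From Day 2 to Day 7 *Vcan* lies at -1.48 in whole cultures and -4.22 in the top 20% of cells, and *Matn4* at 1.25 and 0.08; from Day 7 to Day 10 none of the 6 members that fell in whole cultures is called lower in the top 20% of cells.

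Within a library, the members sorted along the cartilage collagen order in a way that changed with the day for *Vcan*. *Acan*, *Hapln1*, *Matn1*, *Matn3*, *Matn4* and *Has2* were higher in the top than in the bottom 20% of cells in 6 of 6 libraries. The mean log2 ratios were 6.46 ± 1.01 (SD, n = 6 libraries) for *Matn1*, 5.94 ± 0.56 for *Acan*, 5.59 ± 0.89 for *Hapln1*, 5.36 ± 0.72 for *Matn3*, 3.87 ± 1.25 for *Matn4* and 1.64 ± 0.59 for *Has2*. For each the exact two-sided sign-flip permutation test over libraries gave p = 0.03125, the smallest that 6 libraries allow, unadjusted for the 8 members compared. *Acan* at Day 7 ran from 69.1 and 64.3 CPM in the bottom bin over 707 and 486 in the middle one to 3215 and 2588 in the highest. At Day 10 the same bins had 31.7 and 39.5, 174 and 162, and 3415 and 3051 CPM.

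*Vcan* was higher in the top than in the bottom bin at Day 2 and lower in it later. From bottom to top it went from 179 to 729 CPM and from 153 to 611 CPM in the Day 2 replicates (log2 ratios 2.02 and 2.00), from 170 to 51.1 and from 191 to 30.6 at Day 7 (-1.73 and -2.64), and from 103 to 50.03 and from 85.5 to 29.9 at Day 10 (-1.04 and -1.51). Over all 6 libraries its mean ratio was -0.48 ± 2.00 (SD; exact permutation p = 0.5625), since the days pull in opposite directions. At Day 10 the course was not monotonic: *Vcan* was highest in the middle bin and the one above it, at 199 and 211 CPM in replicate A and 167 and 156 in replicate B. *Matn4* reached its plateau early at Day 7, with 786 and 700 CPM in the middle bin and 797 and 598 in the highest, whereas at Day 2 it climbed through every bin, from 15.7 to 681 and from 28.6 to 552 CPM. *Matn2* was highest in the bin second from the bottom at Day 7 (30.6 and 34.6 CPM, against 4.83 and 4.42 in the highest) and nearly level at Day 10 (between 6.58 and 11.9 CPM in every bin). Its mean ratio over the libraries was -0.73 ± 1.53 (SD; exact permutation p = 0.28125).

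**Figure D3:**
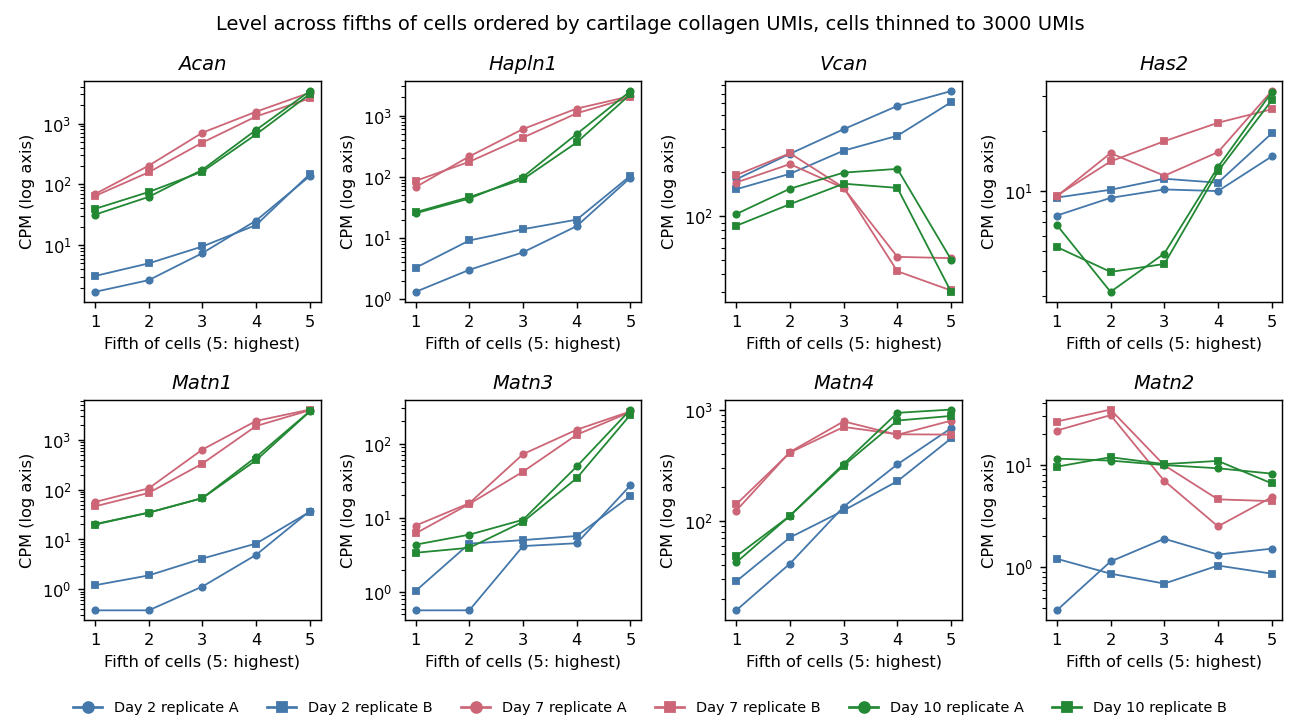
Level of each member (CPM, log axis) in 5 equal bins of cells ordered by cartilage collagen score within each library, after thinning to 3000 UMIs; colours are days, circles replicate A and squares replicate B. The *Vcan* lines climb at Day 2 and end lowest in the top bin at Days 7 and 10, while the *Acan*, *Hapln1*, *Matn1* and *Matn3* lines climb in all 6 libraries.

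The difference between days in the contrast of the top and bottom 20% of cells was tested directly, with edgeR and the library as a block, a test chosen after the bins had been seen. It summed all UMIs of the cells, and the median UMIs per cell were higher in the bottom than in the top bin of each library. The part of this depth in the contrasts was not tested. From Day 2 to Day 7 the contrast changed for 7 of the 8 members, where 47.4% of the 16949 genes tested changed. For *Vcan* it moved by -4.25 ± 0.15 (SE, log2; adjusted p = 1.2e-10) and for *Matn4* by -2.57 ± 0.20 (SE, adjusted p = 1.4e-07), while *Matn3* moved by 1.74 ± 0.22 (SE, adjusted p = 2.0e-05). From Day 7 to Day 10 it changed for 6 members, against 16.4% of all genes, each with a positive log2 change, among them *Hapln1* (1.68 ± 0.09 SE, adjusted p = 7.5e-08). For *Matn2* the log2 ratio of top to bottom bin stayed negative, going from -2.14 and -2.56 at Day 7 to -0.48 and -0.54 at Day 10. At Day 10 the bottom bins of 4 of these 6 lie under the level in macrophage-marked cells, both read in thinned cells, whereas the test summed all UMIs. For these 4 the denominator of the contrasts, and of the ratios of top to bottom bin above, may thus be a background level. The contrasts and ratios are not ranked. For *Acan* the bottom bins held 31.7 and 39.5 CPM against 93.1 and 102 in macrophage-marked cells, and for *Hapln1* 25.4 and 26.5 against 48.0 and 68.6. For *Matn1* they held 20.4 and 19.9 against 108 and 144 CPM, and for *Matn4* 42.3 and 48.1 against 72.1 and 56.7. *Matn3*, with 4.35 and 3.38 CPM, cannot be set against macrophage-marked cells, which yielded 2 UMIs of it in each library, and *Matn2* had 11.5 and 9.59 CPM, near its 12.01 and 9.46 in those cells. The same limit applies to some members on the Day 2 side of the first step. There the bottom bins of *Acan* (1.70 and 3.10 CPM) and *Matn4* (15.7 and 28.6) lie under the levels of muscle-marked cells (6.47 and 9.13, and 26.97 and 66.2). So do those of *Hapln1*, with 1.32 and 3.28 CPM against 6.47 and 11.4. The muscle-marked levels rest on 6 and 8 UMIs for *Acan* and 6 and 10 for *Hapln1*. The bottom bins of *Matn1*, *Matn2* and *Matn3* rest on 2 to 7 UMIs a library after thinning. The top bins of *Vcan* at Day 10 (50.03 and 29.9 CPM) are near or under its level in the Day 10 macrophage-marked cells (48.0 and 61.5 CPM).

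Cells marked by genes outside the list show where the members are used. A gate here is a set of cells with given transcripts, not a cell type. UMIs of a gene are also found in cells that should not make it, which sets a background; whether free RNA, doublets or uptake gave them was not tested. Cells with at least 4 of 6 macrophage markers (read before thinning, as for the muscle and tendon gates) at Day 10 (111 and 141 cells, median 20729 and 19778 UMIs before thinning), which should not make aggrecan, still had 93.1 and 102 CPM of *Acan* and an *Acan* UMI in 15.3% and 10.6% of cells, against 903 and 809 CPM and 46.5% and 46.9% in the other cells. Muscle-marked cells at Day 2 (309 and 292 cells, median 27883 and 20274.5 UMIs) had 6.47 and 9.13 CPM of *Acan* and a UMI in 1.94% and 2.74%, against 35.8 and 38.2 CPM and 7.88% and 8.04% in the others. *Matn2* in the Day 10 macrophage-marked cells was at 12.01 and 9.46 CPM, from 4 UMIs in each library, beside 9.94 and 9.82 CPM in the other cells. So few UMIs do not set a background for *Matn2*, and its Day 10 level cannot be told apart from one. For *Vcan* the gap was narrower than for *Acan*, with 48.0 and 61.5 CPM in the Day 10 macrophage-marked cells against 145 and 113 in the others. Whether those cells make *Vcan* was not tested, so that level may not be a background. Shares and intervals cover counting error only.

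Cells with an *Ihh* UMI, the hedgehog ligand of prehypertrophic chondrocytes, numbered 134 to 426 a library. *Acan*, *Hapln1*, *Matn1* and *Matn3* were higher in them than in the other cells in 6 of 6 libraries, with mean log2 ratios of 2.00 ± 0.71, 2.17 ± 0.87, 2.01 ± 0.73 and 1.88 ± 0.67 (SD), and *Vcan* was lower in 6 of 6 (-1.29 ± 0.78), with Day 10 levels of 52.4 and 33.2 CPM that are near or under the 48.0 and 61.5 CPM of macrophage-marked cells. The exact sign-flip permutation test gave p = 0.03125 for each, the smallest possible, unadjusted among the 24 comparisons of the 3 gates present in all libraries with the 8 members. Adjusted over those 24 by Benjamini-Hochberg it is 0.0577, so none of the gate comparisons passes 0.05. *Matn4* split by day, with log2 ratios of 1.77 and 1.62 in the Day 2 libraries, -0.23 and -0.22 in those of Day 7, and 0.60 and 0.45 in those of Day 10 (exact permutation p = 0.15625). Cells with at least 5 UMIs of *Col10a1*, the collagen of hypertrophic cartilage, reached 50 cells only at Day 10 (166 and 110 cells). There *Hapln1* stood at 3042 and 1867 CPM against 597 and 538 in the other cells, *Acan* at 3092 and 1812 against 854 and 785, and *Matn3* at 297 and 139 against 67.1 and 58.0, whereas *Matn4* was lower in both, at 295 and 212 CPM against 487 and 433. *Matn1* had 1964 and 1036 CPM against 847 and 843. A UMI of *Hapln1* was found in 60.2% and 50.9% of the *Col10a1* cells and one of *Acan* in 63.3% and 62.7%, so the means rest on part of the cells. With 2 libraries these values have no test. At Day 7 such cells (36 and 29) fell short of 50. In them *Acan* was lower than in the other cells, at 630 and 540 CPM against 1153 and 922. *Hapln1* was lower too, at 491 and 241 CPM against 857 and 757, so the Day 10 direction of these genes was not seen at Day 7.

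Tendon-marked cells (a UMI of both *Scx* and *Tnmd*, 362 to 904 cells) had lower levels of *Acan*, *Hapln1*, *Matn1*, *Matn3*, *Matn4* and *Has2* in 6 of 6 libraries, and *Vcan* split by day, with log2 ratios of -1.47 and -1.12 in the Day 2 libraries, 0.03 and -0.02 in those of Day 7, and 0.13 and 0.08 in those of Day 10. *Acan* had -2.35 ± 0.26 and *Matn1* -2.50 ± 0.61 (exact permutation p = 0.03125 for each, adjusted 0.0577). *Matn2* was also lower in each, but from 1 and 0 UMIs in the tendon-marked cells of Day 2. At Day 10 it had 9.59 and 7.97 CPM against 10.01 and 9.98, near the 12.01 and 9.46 CPM (4 UMIs in each library) of macrophage-marked cells. At Day 10 the tendon-marked cells held 205 and 183 CPM of *Acan*, above the 93.1 and 102 CPM of the macrophage-marked cells. Cells with at least 2 UMIs of *Prg4*, the lubricin of the joint surface, were present in number at Days 7 and 10 (96 to 209 cells), and in them *Acan* was lower than in the other cells in 4 of 4 libraries, with 144 and 118 CPM against 1165 and 929 at Day 7. At Day 10 they had 79.7 and 85.0 CPM of *Acan*, under the 93.1 and 102 CPM of the macrophage-marked cells. The bottom bins by cartilage collagen score in the same libraries held less, at 31.7 and 39.5 CPM. Whether the *Acan* level of the Day 10 *Prg4* cells is background was not tested.

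*Matn2* marked a different place at Day 7. In cells with a UMI of *Gdf5*, the growth factor of the joint interzone (275 and 361 cells), it stood at 122 and 97.9 CPM, against 9.98 and 12.7 CPM in the other cells of the same libraries. A *Matn2* UMI was found in 26.5% of these cells (exact 95% interval 21.4% to 32.2%) and 24.1% (19.8% to 28.9%), against 2.74% and 3.33% of the others and 1.38% and 1.20% of tendon-marked cells. The *Gdf5* cells had median depths of 8485 and 7578 UMIs before thinning, under the 30036.5 and 31020 of the tendon-marked cells. They also held more *Vcan* (313 and 380 CPM against 126 and 129) and more *Has2* (47.3 and 33.2 CPM against 16.0 and 17.3), and less *Acan* (815 and 502 CPM against 1162 and 937). At Day 10 *Acan* was instead higher in the *Gdf5* cells, at 1833 and 1398 CPM against 886 and 793. At Day 2 the *Gdf5* cells yielded 6 and 4 *Matn2* UMIs, and at Day 10, when 78 and 67 such cells were left, 5 and 0, where a count of 0 allows up to 14.9 CPM. Over the 6 libraries the *Matn2* ratio was therefore 1.51 ± 1.94 (SD, above 0 in 5 of 6; exact permutation p = 0.15625), and that of *Has2* 0.84 ± 0.56 (SD). *Has2* was higher in the *Gdf5* cells in 5 of 6 libraries. In Day 10 replicate B it had 9.95 CPM there, from 2 UMIs, against 10.95 CPM in the other cells, and its log2 ratio of 0.18 is above 0 only through the 0.5 added to the sums, so no p is given for it.

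**Figure D4:**
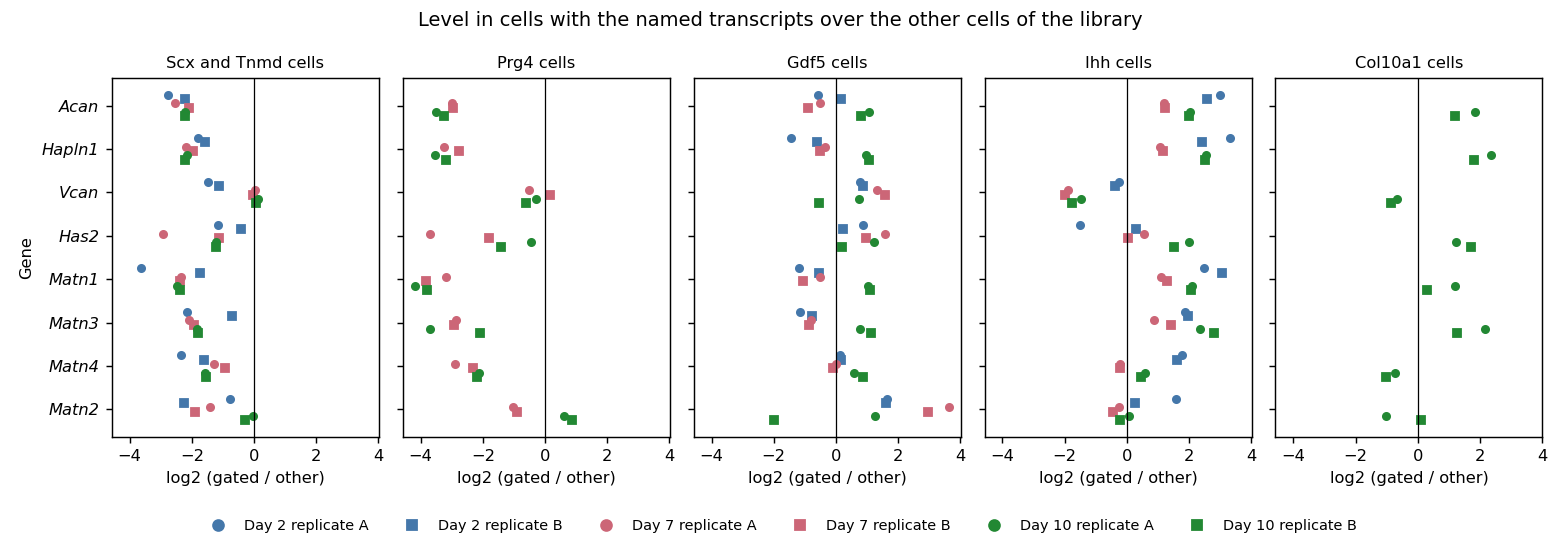
Log2 ratio of each member's level in cells with the named transcripts to the other cells of the same library, for gates with at least 50 cells; each symbol is 1 library, coloured by day. The *Acan*, *Hapln1*, *Matn1* and *Matn3* symbols lie right of 0 for *Ihh* cells and left of 0 for *Scx* and *Tnmd* cells, and *Matn2* lies farthest right in the Day 7 *Gdf5* cells, at 3.62 and 2.95.

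Cells with one cartilage member tended to hold the others. Among cells thinned to 3000 UMIs, none of *Acan*, *Hapln1*, *Matn1* and *Matn3* was detected in 87.1% and 85.3% of the cells of the Day 2 libraries, in 18.3% and 20.2% for Day 7, and in 39.9% and 40.1% for Day 10. All 4 were detected together in 0.159% and 0.0518%, 17.4% and 14.8%, and 8.90% and 7.74%. The macrophage-marked cells of Day 10 held a UMI of *Hapln1* in 8.11% and 16.3% and of *Matn1* in 15.3% and 15.6%, so 1 UMI need not mean that a cell makes the gene. The share of cells with both of 2 genes, divided by the product of their shares, was 4.15 and 4.26 for *Acan* and *Hapln1* in the Day 2 libraries, then 1.27 and 1.28, then 1.70 and 1.69. This ratio cannot exceed the inverse of the larger share, which was 66.9% and 62.8% for *Acan* at Day 7 and 7.67% and 7.88% at Day 2, so its fall between those days is bounded by detection. The correlation of log2(UMIs + 1) over cells, given as a description, was 0.25 and 0.33, 0.71 and 0.69, and 0.78 and 0.76 for the same pair.

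The company of *Vcan* differed by day in both replicates. At Day 2 it was found in 67.3% and 62.8% of cells with *Acan*, against 50.9% and 46.9% of all cells. At Day 7 the shares were 18.5% and 17.2% against 22.5% and 23.1%, and at Day 10 20.9% and 16.4% against 24.8% and 20.7%. The muscle-marked cells of Day 2 held *Vcan* in 23.9% and 26.0%, and the macrophage-marked cells of Day 10 in 12.6% and 14.9%. As a ratio to the product of shares, *Acan* with *Vcan* had 1.32 and 1.34, 0.82 and 0.75, and 0.84 and 0.79. *Matn1* with *Vcan* had 1.33 and 1.46, 0.72 and 0.62, and 0.69 and 0.67, and *Vcan* with *Matn4* had 1.28 and 1.27, 1.01 and 0.99, and 0.93 and 0.96. *Vcan* instead met *Matn2* at Day 7, with ratios of 2.37 and 2.35: 53.3% and 54.2% of the 321 and 389 *Matn2* cells held *Vcan*. Doublets were not called. Leaving out the 5% of cells with the most UMIs moved 3 of the 168 ratios across 1, all of them in pairs with *Matn2*. Thinning to 1000 UMIs moved 18 of them in 8 pairs, 2 of these without *Matn2*, namely *Vcan* with *Has2* and *Vcan* with *Matn4* in 1 library each.

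**Figure D5:**
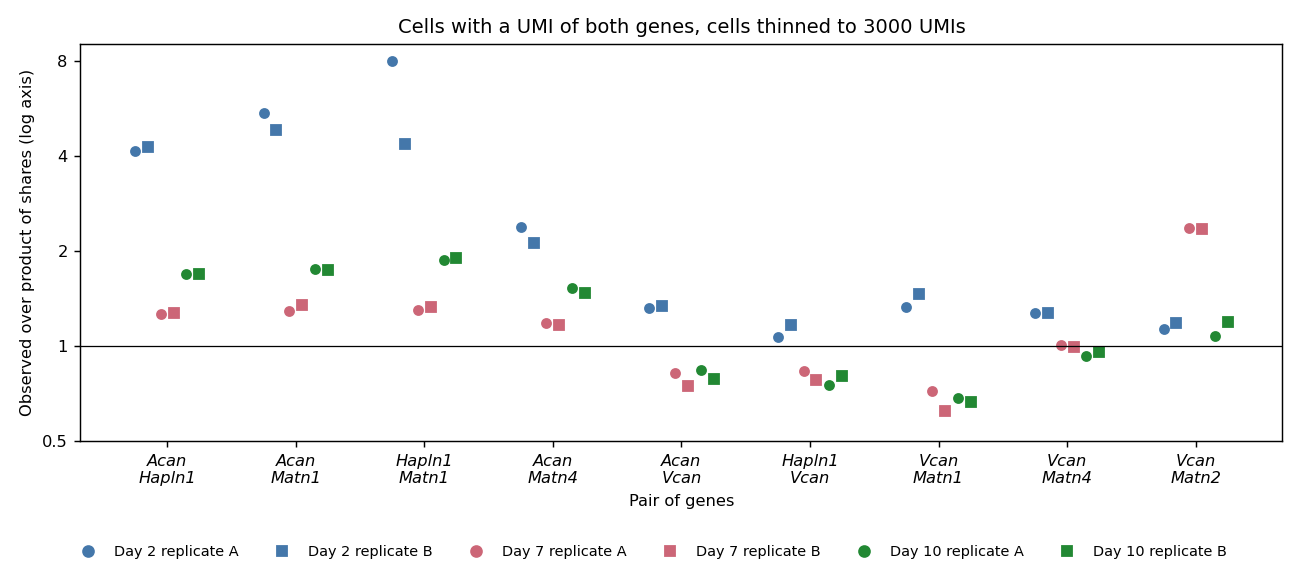
Share of cells with a UMI of both genes divided by the product of the 2 shares (log axis; 1 is the value for independent genes), for 9 of the 28 pairs in each library. Pairs of *Vcan* with *Acan*, *Hapln1* and *Matn1* lie above 1 at Day 2 and below 1 at Days 7 and 10.

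Over 5174 genes found in at least 5% of the thinned cells of every library, the genes most like *Acan* by the mean correlation over cells were *Col2a1* (0.67), *Col11a2* (0.64), *Col9a1* (0.61), *Col9a3* (0.61) and *Col11a1* (0.60), the fibril collagens of cartilage. Such means pool days that differ: *Acan* with *Col2a1* had 0.38 and 0.40 at Day 2 and 0.79 to 0.84 later. *Hapln1* had *Col2a1* (0.61), *Col9a3* (0.60), *Acan* (0.59), *Col9a1* (0.56) and *Col11a2* (0.56). *Matn1* had *Col9a3* (0.59), *Col2a1* (0.57), *Hapln1* (0.56), *Acan* (0.56) and *Col11a2* (0.55). *Matn3* had *Hapln1* (0.36) first, then *Col9a3* (0.35), *Col2a1* (0.34), *Col9a1* (0.33) and *Acan* (0.32). *Matn4* had *Col2a1* (0.44), *Col9a1* (0.41), *Col11a1* (0.40), the ubiquitin ligase gene *Wwp2* (0.39) and *Col9a2* (0.36). For *Vcan* the highest means were at most 0.20 (*Malat1*, *Fosb*, *Gas1*, *Tcf4* and *Col3a1*), and they pool days that differ. Its correlation with *Malat1* was 0.31 and 0.23 at Day 2, and those with *Gas1* and *Col3a1*, 0.12 and 0.09, and -0.01 and -0.02, at Day 2, were 0.31 and 0.38, and 0.32 and 0.33, at Day 7. At Day 10 the correlation of *Vcan* was 0.14 and 0.13 with *Gas1* and 0.30 and 0.23 with *Col3a1*. The highest means of *Matn2* were at most 0.11 (*Gas1*, *Pdgfra*, *Fabp5*, *Vcan* and *Jun*), and they too pool days that differ. With *Gas1* it had 0.31 and 0.30 at Day 7, the highest of the 5 in both libraries. At Day 2 that correlation was 0.01 and -0.004, and at Day 10 it was 0.03 and 0.02. The means of *Has2* were at most 0.10 (*Col11a2*, *Acan*, *Wwp2*, *Col2a1* and *Col9a1*), too weak in such sparse counts to single out a gene.

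Around the members, 26 of 28 listed genes of the hyaluronan and aggrecan pathway could be tested in whole cultures, by the same edgeR test as the members. From Day 2 to Day 7, 13 were higher and 11 lower, and from Day 7 to Day 10, 8 were higher and 10 lower. Of all genes, 35.7% were higher and 34.6% lower at the first step and 26.3% and 25.9% at the second, so that calls in the list and its groups are to be read against a background in which most genes changed to Day 7. All 4 matrilin partners rose to Day 7: *Comp*, the cartilage oligomeric matrix protein, went from 1.21 and 1.48 CPM to 492 and 445 (log2 fold change 8.45 ± 0.14 SE) and on to 857 and 744 at Day 10 (0.77 ± 0.10 SE), while *Col9a1*, *Col9a2* and *Col9a3*, which are also score genes, rose by 1.89, 3.05 and 3.54 and then fell by 0.89, 0.70 and 1.03. *Ugdh*, which makes the sugar donor for hyaluronan and chondroitin, went from 61.2 and 67.6 CPM to 103 and 101 and back to 69.8 and 72.1 (log2 0.66 ± 0.06 and -0.52 ± 0.06 SE).

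Of the 4 genes of hyaluronan breakdown, 1 rose and 2 fell to Day 7, and 3 rose to Day 10. *Cemip*, needed for hyaluronan degradation, rose at both steps, from 2.39 and 2.09 CPM to 8.74 and 8.16 and 15.3 and 17.0 (log2 1.91 ± 0.09 and 0.94 ± 0.08 SE). The transmembrane hyaluronidase gene *Cemip2* and *Hyal2* fell to Day 7 (by 0.60 and 0.35 on the log2 scale) and rose to Day 10 (by 0.25 and 0.28). The hyaluronan receptor gene *Cd44* rose at both steps, from 12.9 and 11.3 CPM to 20.2 and 21.1 and 32.2 and 30.6. *Tnfaip6*, which carries proteins onto hyaluronan, fell from 24.4 and 21.0 CPM to 8.08 and 7.71, and *Hmmr*, a hyaluronan receptor that also serves the mitotic spindle, from 78.0 and 82.4 to 41.2 and 42.0. Of the 6 listed ADAMTS proteases, a family that cuts aggrecan and versican, 5 fell and 1 rose to Day 7. *Adamts1* fell by 0.52 on the log2 scale and then by 0.18, *Adamts9* by 0.67 and then by 0.21, and *Adamts5* fell by 0.36 and rose by 0.43 on the log2 scale.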

How the data were processed

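Single cell 3′ libraries of 6 DID cultures (2 per day) were deposited as UMI counts per gene and cell barcode, which the authors made with Cell Ranger 6.1.2 and STAR on GRCm38 (mm10), per the labels, with no normalization; Seurat 4.1.0 is also named. Cells passing the study's limits on UMIs, genes, mitochondrial and ribosomal share were kept; doublets were not called. Counts were summed per library and tested across days with edgeR 4.0.16 (R 4.3.3; quasi-likelihood, TMM, filterByExpr, Benjamini-Hochberg over all genes; 3 residual df, common BCV 0.0689), and CPM are TMM-scaled there. Levels within libraries are raw CPM of cells thinned to 3000 UMIs (seed 1), with 0.5 added to sums in ratios and intervals by Clopper-Pearson. The scripts were tested on simulated data. The letters A and B do not pair libraries: deviations of same-letter libraries correlated at -0.06 to -0.01. Replicate libraries correlated at 0.995 to 0.996 (log2 CPM). The libraries come from separate cultures of pooled embryos, so p-values do not cover spread between animals. Alternatives were DESeq2 1.42.0, RLE factors, no TMM, no filter, a replicate block, leaving out each library, all barcodes, other thinning depths and the top 10% of cells. The text names the 8 members, the 5 genes most like each, and listed pathway genes that were called and reached 10 CPM at one day. The members and gene lists were chosen with earlier results of these data known.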

Additional observations from a re-analysis of the deposited data

Results flagged for a closer look

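The contrast between the top and the bottom 20% of cells by cartilage collagen score differed between days for these members (edgeR's quasi-likelihood test of the difference, library as a block, n = 2 libraries a day). From Day 2 to Day 7 the log2 contrast moved by -4.25 for *Vcan*, by -2.57 for *Matn4*, by -1.55 for *Matn2* and by -0.92 for *Acan*, and by 1.74 for *Matn3*, 0.87 for *Matn1* and 0.61 for *Has2*. From Day 7 to Day 10 it moved by 1.68 for *Hapln1*, 1.56 for *Matn4*, 1.47 for *Matn2*, 0.85 for *Matn3*, 0.81 for *Acan* and 0.60 for *Matn1*. Of these, *Vcan* is the member whose contrast turned, above 0 in both Day 2 libraries and below 0 in both Day 7 and both Day 10 libraries. The Day 2 scores run much lower than the later ones (a median of 16 and 14 collagen UMIs per 3000 in the top 20% of cells, against 110 to 133 later), and their part in the difference was not tested. *Vcan* in the top 20% at Day 10 (50.03 and 29.9 CPM) is near or under its level in macrophage-marked cells (48.0 and 61.5 CPM), and whether those cells make it was not tested. The bottom 20% at Day 10 lie under that level for *Acan*, *Hapln1*, *Matn1* and *Matn4* (*Hapln1* at 25.4 and 26.5 CPM against 48.0 and 68.6) and near it for *Matn2*. At Day 2 they lie under the level of muscle-marked cells for *Acan*, *Hapln1* and *Matn4*. They rest on 2 to 7 UMIs a library for *Matn1*, *Matn2* and *Matn3*. These levels and UMIs were read in thinned cells, whereas the test summed all UMIs. The contrasts of the members so named may thus rest on a background level or on few UMIs. The Day 2 bottom 20% of *Vcan* (179 and 153 CPM) lie above the muscle-marked cells (121 and 123 CPM). Those of *Has2* held 7.57 and 9.31 CPM, beside 4.31 and 7.99 CPM in the muscle-marked cells. The latter rest on 4 and 7 UMIs, so whether *Has2* lies above a background there cannot be told.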

How the results depend on the processing

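The 8 calls from Day 2 to Day 7 in whole cultures kept their direction and side of the threshold under every alternative run. Without TMM the median of all genes moved by -0.27 (log2) in whole cultures and -0.48 in the top 20% of cells, and the share of called genes that were higher at Day 7 went from 50.8% to 33.3% and from 48.9% to 24.9%; there 2 members were lower in the top 20% of cells, with *Matn4* at -0.39. In the top 10% of cells *Matn1* from Day 7 to Day 10 was 0.088. With whole cultures thinned to 3000 UMIs *Vcan* from Day 7 to Day 10 was -0.15 and *Matn2* -0.64 (adjusted p = 0.0019, edgeR). Thinned to 1000 UMIs, the mean *Matn2* ratio in tendon-marked cells was 0.40, from few UMIs. Leaving out each library in turn, from Day 7 to Day 10, 4 to 6 members were lower in whole cultures, 1 to 3 were higher and 0 to 1 lower in the top 20% of cells, *Matn2* ranged from -0.27 to 0.029 and *Vcan* from -0.11 to 0.16 in whole cultures, and *Vcan* from -0.46 to 0.12 in the top 20% of cells; *Matn4* from Day 2 to Day 7 in the top 20% of cells ranged from -0.049 to 0.21. The cause of these changes was not tested. With the replicate letter as a block, 7 members were higher and 1 lower from Day 2 to Day 7 and 0 higher and 6 lower from Day 7 to Day 10 in whole cultures, and 6 and 1, then 3 and 0, in the top 20% of cells, so the block changed no call; the letters share only a name. At the depth of 3000 UMIs per cell, *Has2* and *Matn2* were seen in at most 4.91% and 4.12% of cells, which limits what co-detection can show for them.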

Other observations

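The UMIs of the cartilage members were held by fewer cells at Day 10 than at Day 7. In cells thinned to 3000 UMIs, the 10% of cells richest in *Matn1* held 47.4% and 49.8% of its UMIs at Day 7 and 74.0% and 74.1% at Day 10. For *Hapln1* these shares were 39.6% and 41.4%, then 65.4% and 66.1%, and for *Acan* 43.1% and 43.7%, then 58.9% and 58.9%. *Vcan* showed no such step, at 68.4% and 68.5%, then 65.5% and 68.1%. With 2 libraries a day these are values with no test.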
